A study of Mus musculus with 14 samples.

Results

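The genes described here are 45 genes that copy DNA in S phase, other than the MCM helicase subunits. They were chosen by name: a gene label in the per-library tables had to equal a member's symbol, or the symbol followed by a copy number, and where a symbol had several copies the one with the highest mean was used. All 45 were found among 48714 gene labels, and 44 were among the 9921 genes that passed the filter on low values. The gene left out of the tests was E2f2, with a mean of 0.682 RPKM (reads scaled to the length of the gene model and to the total of the library).

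The libraries come from hematopoietic stem cells (HSCs) of C57BL/6 mouse bone marrow, sorted by their calcium level. There were 7 libraries of [Ca2+]high cells and 7 of [Ca2+]low cells, called calcium-high and calcium-low here, each made from 100 cells and numbered 1 to 7 in both groups. The labels give no genotype other than the strain, no treatment, no age and no sort gate beyond the name of the cell type, and they do not say whether replicates came from separate animals. All p-values here thus reflect the spread among these libraries, which may be technical. The title of the series relates cytoplasmic calcium to HSC dormancy, and DNA synthesis genes bear on that question because a dormant stem cell does not copy its DNA.

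During S phase the CDC45-MCM-GINS helicase unwinds DNA, the primase complex of polymerase alpha starts each strand, and polymerases delta and epsilon extend them on the sliding clamp PCNA. RPA covers the single strands, FEN1 and LIG1 join the Okazaki fragments of the lagging strand, and CAF-1 puts new histones onto the copied DNA. Many of these genes are transcribed by E2F factors once RB proteins release them at the end of G1, and most adult HSCs are out of cycle.

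Some libraries stood apart before any comparison was made. The reads in listed genes, recovered from the RPKM steps, ran from 3573972 to 7384954 per library for replicates 1 to 3. For replicates 4 to 7 they ran from 8279695 to 10294484. Reads of 4 Y-linked genes numbered 615 to 819 in replicates 1 and 2 of both groups and 0 to 4 in all other libraries. Replicates 1 and 2 thus held cells of male mice, and the 7 replicates were not all from the same animals. Whether libraries alike in Y-linked reads came from separate animals is not known. Calcium-low replicate 3 had 30 G2 and M phase genes at a summed 637.2 RPKM, against at most 65.4 elsewhere, and 12 neutrophil markers at 772.5 RPKM, against 9.80 to 97.6 elsewhere. Its 15 erythroid markers summed to 361.4 RPKM, against 117.7 to 236.7 elsewhere, with Hbb-b1 listed at 0 in every library. Of these, Car1, Klf1 and Ermap were at 119.7, 9.52 and 9.79 RPKM in it. They were at 62.5, 5.43 and 5.58 RPKM in calcium-high replicate 3. All other libraries had at most 17.1, 3.03 and 2.12 RPKM. Not all erythroid markers did so: in calcium-high replicate 3 Hba-a1 was at 0 and Alas2 at 0.592 RPKM, its lowest value. The 14 HSC markers were all found and summed to 234.0 to 437.0 RPKM in calcium-high and 232.0 to 336.7 in calcium-low. In both groups the lowest HSC sum was that of replicate 3, so calcium-high replicate 3 stood low too. Cd3e, Ms4a1 and Ighm were listed at 0 throughout. The part of these library differences in the results that follow was not tested. Values by gene are given with all libraries, and how they differ without both replicate 3 libraries is given after them.

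All 44 tested members had a lower mean in calcium-high than in calcium-low HSCs, and no member passed the test at an adjusted p of 0.05. Over all tested genes, 57.8% had a lower mean in calcium-high. The median log2 fold change of the members, calcium-high minus calcium-low on the log2(RPKM + 1) scale, was -0.33, and it was -0.03 over all tested genes. The range ran from -0.60 for Lig1, which joins Okazaki fragments, to -0.09 for Rfc3, a subunit of the clamp loader. In bulk samples, fewer cells in S phase and less of each mRNA per cell cannot be told apart.

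In limma without the replicate number, 0 of 44 members were called, against 0% of all tested genes. At an unadjusted p under 0.05 there were 7 members (15.9%), all lower, beside 3.57% of all genes that were lower at that p. Blocking on replicate number, limma again called 0 members, against 0.433% of genes called lower. At an unadjusted p under 0.05 in that fit there were 17 members (38.6%), all lower, beside 8.04% of all genes. Among the members, the lowest adjusted p was 0.39 in limma without the block and 0.0589 with it, in both cases for Dtl.

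The calls depended on the scaling and the tool. When the RPKM values were rescaled by median-of-ratios factors and the block was kept, limma called Lig1, Slbp and Dtl lower (3 of 44, 6.82%, against 0.726% of genes), with adjusted p of 0.040, 0.026 and 0.028. The same 3 genes were called by limma-voom on recovered reads with the block, against 1.34% of genes, with adjusted p of 0.031, 0.029 and 0.013. Voom with quality weights called Rfc2, Lig1 and Dtl, against 2.6% of genes. Plain voom called 0 members, against 0.0202% of genes called lower, and had 7 members lower at an unadjusted p under 0.05, beside 2.81% of genes. Limma with median-of-ratios scaling and no block also called 0 members, against 0% of genes called lower, with a lowest adjusted p of 0.21. It had 14 members lower at an unadjusted p under 0.05, beside 3.43% of genes.

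**Figure D1:**
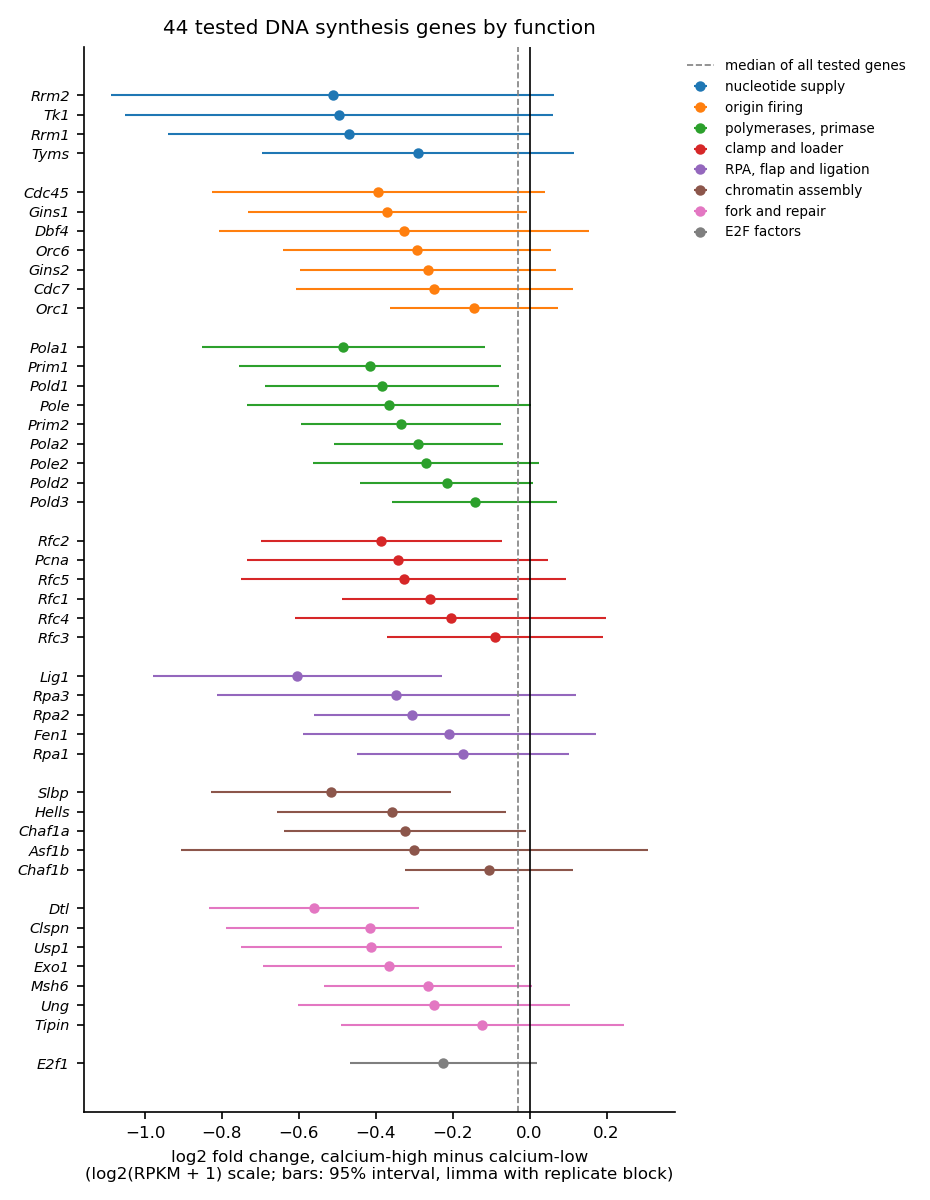
Log2 fold change of the 44 tested members, calcium-high minus calcium-low on the log2(RPKM + 1) scale, ordered and coloured by function, with 95% intervals from limma with the replicate block. All 44 points lie below 0, from -0.60 for Lig1 to -0.09 for Rfc3.

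The rule did not use promoter sequence, so the members' promoters were read to see what they share. RefSeq promoters (GRCm38.p6, 250 bases before to 50 after the start) were matched for 37 of the 45 members. Exo1, Gins1, Gins2, Pole, Prim2, Rfc2, Tipin and Usp1 were not matched. Searched on both strands, at least 1 of 3 forms of the E2F element (TTTCGCGC, TTTGGCGC or TTTCCCGC) was in 12 of 37 (32.4%), against 573 of 27025 genes in the table (2.12%) and 339 of 7562 tested genes (4.48%). The 12 were Clspn, Dtl, E2f2, Hells, Lig1, Msh6, Orc1, Pola1, Pold1, Pold3, Pole2 and Rfc3. The members' windows had a median GC content of 63.3%, beside 61% for tested genes and 52.8% for all. The shorter cores TTCGCGC and TTGGCGC, which lie inside the first and second of these forms, were in 12 of 37 members, against 4.47% of genes and 8.78% of tested genes. CCAAT was in 56.8% of members, against 41.1% of genes and 42.7% of tested genes. TTTGAA, the CHR element of G2 and M genes, was in 18.9% of members, below the 20.2% of all genes and above the 13.6% of tested genes.

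Matches that lie wholly before the RefSeq start are printed here for 5 genes, to show how near to the start they fall and on which strand. The other genes with a form had no match wholly before that start and are not printed. By the GENCODE M21 bounds used later for gene positions, the matches of Rfc3, Orc1 and Hells lie inside the gene. Each line reads 5′ to 3′ on the gene's strand, with the match in capitals. In Dtl the match ends at the start itself, in Rfc3 it ends 2 bases before it, in Orc1 19, in Hells 54 and in Pola1 130 bases before it. In Orc1 and Pola1 the form is on the opposite strand, so its reverse complement is shown. The windows are Dtl at chr1:191575545-191575563 (minus strand), Rfc3 at chr5:151651209-151651229 (minus), Orc1 at chr4:108579416-108579445 (plus), Hells at chr19:38930917-38930946 (plus) and Pola1 at chrX:93632275-93632304 (minus).
Dtl: cgtgacgtcagTTTGGCGC
Rfc3: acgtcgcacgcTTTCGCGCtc
Orc1: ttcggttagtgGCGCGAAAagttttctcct
Hells: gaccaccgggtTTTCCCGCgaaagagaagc
Pola1: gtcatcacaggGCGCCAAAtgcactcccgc

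A match to these letters is a description of the sequence and not a measured site. The 11 tested members with an E2F form had a median log2 fold change of -0.36, and the 25 matched members without one had a median of -0.30. The ranges overlapped almost wholly, from -0.60 to -0.09 with a form and from -0.52 to -0.11 without. Lig1 and Dtl, the pair with the most negative values, both carry a form, and so does Rfc3, which had the value nearest to 0.

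Among the genes of fork protection, checkpoint signalling and repair, Dtl had the smallest p, and it had the smallest of all members. It encodes the substrate receptor of the CRL4 ubiquitin ligase that destroys CDT1 and other proteins on chromatin-bound PCNA during S phase. The gene is at chromosome 1, 191537356 to 191575544, on the minus strand (GRCm38, GENCODE M21). In calcium-high its lowest, median and highest values were 6.85, 11.6 and 13.6 RPKM, and in calcium-low they were 9.88, 16.2 and 21.5 RPKM. The groups overlapped through calcium-low replicate 2 alone, since the other 6 calcium-low libraries were above every calcium-high library. The means were 10.6 ± 2.61 against 16.1 ± 3.67 RPKM (SD, n = 7 libraries per group, as for all later means), a log2 fold change of -0.56 with a 95% interval of -0.83 to -0.29 in limma with the block. Dtl, whose E2F form abuts the start in the sequence printed earlier, was lower in calcium-high in 7 of 7 pairs of equal replicate number.

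Usp1, the enzyme that removes ubiquitin from PCNA and FANCD2, had the next smallest p of this group. Its values were 2.83, 3.29 and 6.06 RPKM in calcium-high and 3.195, 3.83 and 13.3 RPKM in calcium-low, as lowest, median and highest. The groups overlapped between 3.195 and 6.06 RPKM, and 2 calcium-low libraries, replicates 1 and 3, were above every calcium-high library. The log2 fold change was -0.41, lower in 6 of 7 pairs, with an adjusted p of 0.25 in limma with the block. The other 5 genes ranged in log2 fold change from -0.41 for Clspn, the adaptor that carries the ATR signal to CHK1, to -0.12 for Tipin, part of the fork protection complex. Between them lay the exonuclease Exo1 at -0.37, the mismatch recognition subunit Msh6 at -0.26 and the uracil glycosylase Ung at -0.25. Ung was the one member of this group with its lowest calcium-low value, 1.34 RPKM, in replicate 3.

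In the group of lagging strand genes, RPA coats single-stranded DNA, FEN1 trims the flap of an Okazaki fragment and LIG1 seals the nick. Lig1 is at chromosome 7, 13277283 to 13311433. On the log2(RPKM + 1) scale it had the most negative log2 fold change of all members, -0.60 with an interval of -0.98 to -0.23. It was at 6.71, 9.815 and 17.5 RPKM in calcium-high and at 11.9, 15.5 and 27.9 RPKM in calcium-low (lowest, median, highest). The groups overlapped: 5 calcium-high libraries were below every calcium-low library, and calcium-high replicates 5 and 6 were not. Its means were 10.7 ± 3.65 and 16.6 ± 5.17 RPKM, lower in 6 of 7 pairs, with an adjusted p of 0.13 in limma with the block.

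Rpa2, the middle subunit of RPA, was at 6.01, 11.1 and 13.96 RPKM in calcium-high and 10.4, 12.4 and 14.8 RPKM in calcium-low. Only 3 calcium-high libraries, replicates 1 to 3, were below every calcium-low library. The log2 fold change was -0.31, lower in 6 of 7 pairs (limma with the block, adjusted p = 0.26). Rpa3, Fen1 and Rpa1 had log2 fold changes of -0.35, -0.21 and -0.17. Per length, Rpa1 was above Rpa3 in 14 of 14 libraries, with a median ratio of 1.99, while Rpa1 was above Rpa2 in 5 of 14.

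Among the genes of histone supply and chromatin assembly, Slbp, which binds the stem-loop of replication-dependent histone mRNAs, had the smallest p. It is at chromosome 5, 33634952 to 33652574. Its values were 5.92, 11.3 and 13.4 RPKM in calcium-high and 11.9, 13.6 and 23.0 RPKM in calcium-low. In 5 calcium-high libraries it was below every calcium-low library, and the ranges overlapped between 11.9 and 13.4 RPKM. The means were 10.5 ± 2.61 and 15.4 ± 3.90 RPKM, a log2 fold change of -0.52 (interval -0.83 to -0.21), with an adjusted p of 0.12 in limma with the block.

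Hells, an SNF2-family remodeller needed for DNA methylation, was lower in calcium-high in 7 of 7 pairs. It was at 1.88, 2.03 and 2.785 RPKM in calcium-high and 2.01, 2.49 and 7.01 RPKM in calcium-low, so the groups overlapped and calcium-low replicate 1 was far above the rest. The log2 fold change was -0.36 and the adjusted p 0.26 in limma with the block. Only Dtl and Hells among the 44 members (4.55%) were lower in every pair, against 3.02% of all tested genes. Chaf1b, the middle subunit of CAF-1, had the highest mean of this group and nearly equal levels: 10.4, 12.2 and 19.2 RPKM in calcium-high and 11.2, 13.97 and 15.8 RPKM in calcium-low, a log2 fold change of -0.11. The large CAF-1 subunit Chaf1a was at -0.32 and the histone chaperone Asf1b at -0.30. Asf1b was lower in only 3 of 7 pairs, and calcium-low replicate 3 held 19.5 RPKM of it against 2.23 to 5.52 in the rest of that group.

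**Figure D2:**
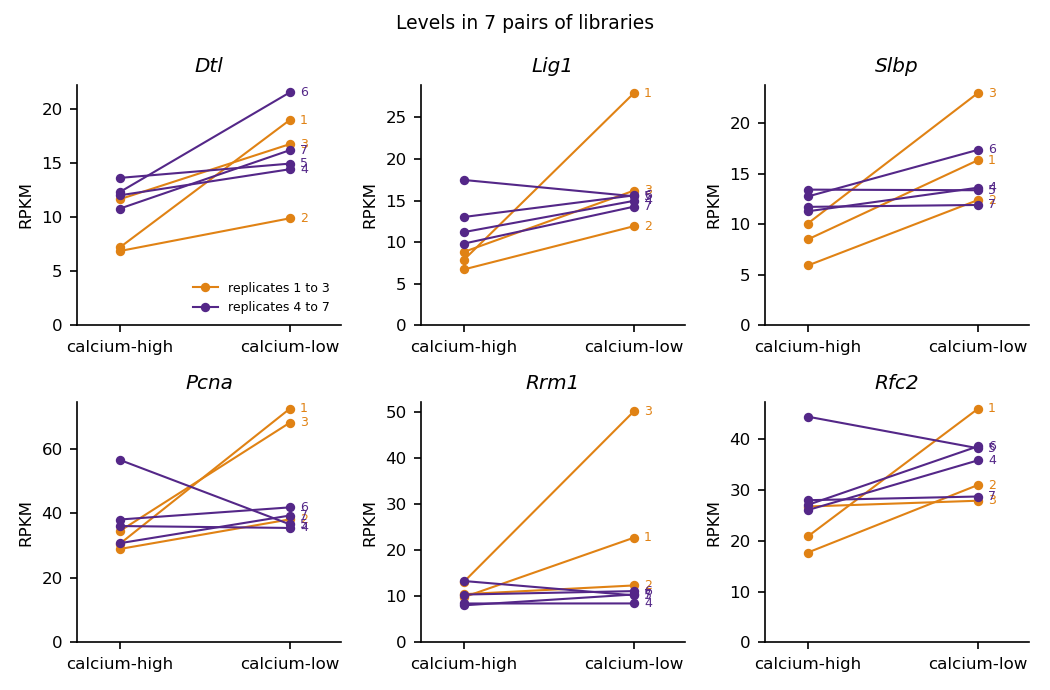
RPKM of Dtl, Lig1, Slbp, Pcna, Rrm1 and Rfc2 in every library, with each line joining the calcium-high and calcium-low libraries of the same replicate number and the vertical axes starting at 0. Dtl is lower in calcium-high in 7 of 7 pairs, and Rrm1 reaches 50.2 RPKM in calcium-low replicate 3.

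All 9 polymerase and primase genes had lower means in calcium-high, with log2 fold changes of -0.48 to -0.14 and adjusted p of 0.21 to 0.57 in limma with the block. Pold1, the catalytic subunit of polymerase delta, had the highest mean. Its values were 6.38, 17.9 and 27.1 RPKM in calcium-high and 12.1, 19.1 and 27.1 RPKM in calcium-low, with overlapping ranges and 3 calcium-high libraries, replicates 1 to 3, at the bottom. Pold1 had a log2 fold change of -0.38 (interval -0.69 to -0.08).

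Pola1 and Pola2 are the catalytic and the accessory subunit of polymerase alpha, and they varied in different libraries. Pola1 was at 3.02, 4.03 and 5.01 RPKM in calcium-high and 4.02, 5.41 and 12.8 RPKM in calcium-low, where replicates 1 and 3 were the highest. Pola2 was at 3.54, 6.55 and 9.86 RPKM in calcium-high and 5.34, 8.02 and 9.31 RPKM in calcium-low, with its highest value in calcium-high replicate 5. The log2 fold changes were -0.48 for Pola1 and -0.29 for Pola2, each lower in 6 of 7 pairs, with adjusted p of 0.21 for both in limma with the block. The ratio of Pola2 to Pola1 ran from 0.583 to 2.19, and Pola2 was the higher of the pair in 9 of 14 libraries.

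The primase subunits Prim1 and Prim2 had log2 fold changes of -0.41 and -0.34. The catalytic subunit of polymerase epsilon, Pole, was at -0.36 and its partner Pole2 at -0.27, while the accessory delta subunits Pold2 and Pold3 were at -0.22 and -0.14. Unlike the polymerase alpha pair, the subunits of polymerases delta and epsilon and of primase kept 1 order of levels per length: Pold1 was above Pold2, Pold2 above Pold3, Pole above Pole2 and Prim1 above Prim2 in 14 of 14 libraries. Median ratios were 1.55 for Pold1 over Pold2 and 3.27 for Pole over Pole2.

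In the group of the clamp and its loader, Pcna, the sliding clamp, had the highest level of all members, with a mean of 41.97 RPKM over the 14 libraries. It lies at chromosome 2, 132249162 to 132253314. Its values were 28.96, 34.5 and 56.6 RPKM in calcium-high and 35.5, 39.3 and 72.4 RPKM in calcium-low. The ranges overlapped, with calcium-high replicate 5 above 5 of the calcium-low libraries. The means were 36.5 ± 9.44 and 47.4 ± 15.8 RPKM, a log2 fold change of -0.34 (interval -0.74 to 0.05), with an adjusted p of 0.43 in limma with the block.

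Rfc2, a small subunit of the clamp loader, was at 17.7, 26.7 and 44.4 RPKM in calcium-high and 27.9, 35.8 and 45.9 RPKM in calcium-low. Here 5 calcium-high libraries were below every calcium-low library, and calcium-high replicate 5 was above 6 of the 7. The log2 fold change was -0.39 (interval -0.70 to -0.07, adjusted p = 0.25 in limma with the block). Rfc1, the large subunit, was at 4.775, 5.27 and 5.98 RPKM in calcium-high and 5.37, 6.11 and 9.84 RPKM in calcium-low, a log2 fold change of -0.26. Rfc5, Rfc4 and Rfc3 were at -0.33, -0.21 and -0.09. Although one complex holds 1 copy of each subunit, the mRNA levels per length were unequal: Rfc2 was above Rfc5 and Rfc5 above Rfc3 in 14 of 14 libraries, and Rfc1 was above Rfc4 in 14 of 14 with a median ratio of 2.46.

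The 4 nucleotide supply genes had the most negative median log2 fold change of the functional groups, -0.48, with all libraries. Without calcium-low replicate 3 it was -0.22, and the medians of the fork, chromatin and polymerase groups, -0.29, -0.28 and -0.27, were then more negative, as was E2f1 at -0.29. Rrm1, the large subunit of ribonucleotide reductase, was at 8.06, 10.4 and 13.35 RPKM in calcium-high and 8.47, 11.15 and 50.2 RPKM in calcium-low. Calcium-low replicates 3 and 1, at 50.2 and 22.75 RPKM, were above every other library, and the remaining 5 overlapped with calcium-high. Its means were 10.5 ± 2.07 and 17.9 ± 14.98 RPKM, a log2 fold change of -0.47 (interval -0.94 to 0.00, adjusted p = 0.36 in limma with the block).

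Tk1, the S phase thymidine kinase, was at 2.53, 5.39 and 9.95 RPKM in calcium-high and 2.99, 6.57 and 15.5 RPKM in calcium-low. Again the groups overlapped, with calcium-low replicates 1 and 3 above every calcium-high library. Its log2 fold change was -0.50, lower in 5 of 7 pairs (adjusted p = 0.43 in limma with the block). Rrm2, the small subunit that carries the radical, was at -0.51 and was lower in 4 of 7 pairs, and Tyms, thymidylate synthase, was at -0.29. The ratio of Rrm1 to Rrm2 was the most variable of the subunit ratios examined, from 0.984 to 9.32.

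All 7 origin firing and helicase genes had lower means in calcium-high, with log2 fold changes of -0.39 to -0.14. Cdc45, which joins MCM and GINS in the active helicase, had 2 labelled copies, and the one with the higher mean was at 0.977, 1.64 and 3.755 RPKM in calcium-high and 1.89, 2.62 and 5.72 RPKM in calcium-low. The other copy had means of 2.18 and 2.74 RPKM, so the direction was shared, and reads may be split between the copies. Cdc45 had a log2 fold change of -0.39 and was lower in 6 of 7 pairs (adjusted p = 0.42 in limma with the block).

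Gins1, a GINS subunit, was at 0.891, 1.46 and 2.01 RPKM in calcium-high and 1.04, 2.001 and 3.98 RPKM in calcium-low, a log2 fold change of -0.37 (adjusted p = 0.35 in limma with the block). Orc6, of the origin recognition complex, had the highest mean of the group and was at 2.80, 3.88 and 4.53 RPKM in calcium-high and 3.24, 3.99 and 8.92 RPKM in calcium-low. Both genes overlapped between the groups, and the highest value of each was in calcium-low replicate 1. Dbf4 and Cdc7, the regulatory and catalytic subunits of the kinase that fires origins, were at -0.33 and -0.25, with Cdc7 above Dbf4 in 14 of 14 libraries. Gins2 was at -0.26 and Orc1 at -0.14.

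E2f1, an activator of the E2F family that drives many of these genes, was at 2.19, 4.81 and 6.60 RPKM in calcium-high and 3.535, 4.85 and 7.64 RPKM in calcium-low. The medians were nearly equal, and the calcium-high libraries of replicates 1 to 3 were the lowest. E2f1 had a log2 fold change of -0.22 (interval -0.47 to 0.02, adjusted p = 0.41 in limma with the block). E2f2 was below E2f1 in 14 of 14 libraries, with means of 0.558 ± 0.519 and 0.806 ± 0.558 RPKM.

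The difference between the groups was carried by some pairs more than others. In pairs 1 and 3 the median member difference was -0.88 and -0.82, with 44 and 43 of 44 members lower in calcium-high. In pair 2 it was -0.32, and in pairs 4, 6 and 7 it was -0.11, -0.14 and -0.09, with 33 or 34 members lower. Pair 5 went the other way: the median difference was 0.28, and 40 members were higher in calcium-high. The medians over all tested genes also moved from pair to pair, from -0.25 in pair 1 to 0.16 in pair 6, and relative to them the member medians were -0.63 and -0.60 in pairs 1 and 3, -0.14 to -0.30 in pairs 2, 4, 6 and 7, and 0.16 in pair 5. Counting pairs, 21 members (47.7%) were lower in 6 or 7 of 7, against 12.4% of all tested genes, and none had groups that did not overlap, against 0.111% of genes.

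**Figure D3:**
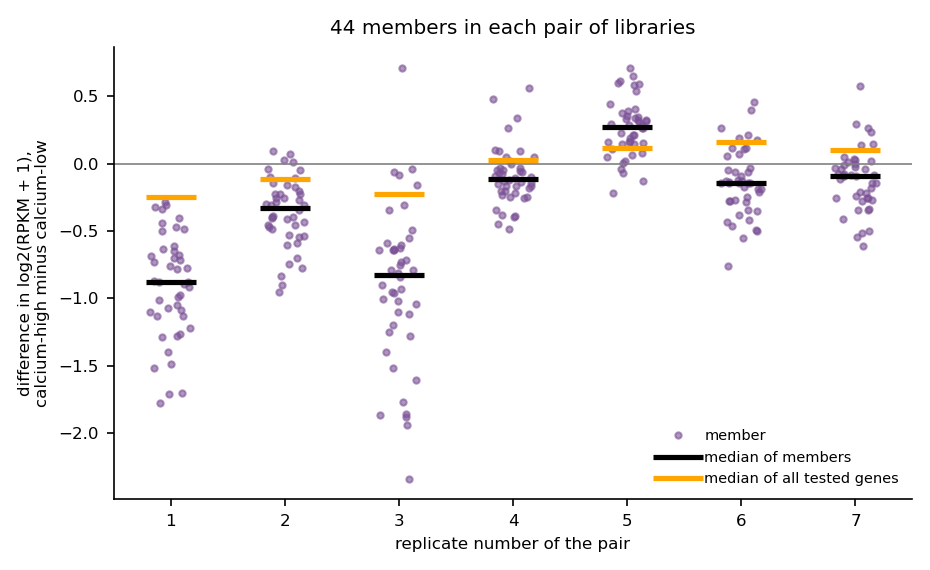
Difference in log2(RPKM + 1), calcium-high minus calcium-low, for each of the 44 members in each of the 7 pairs of libraries, with the member median and the median over all tested genes. The member medians are -0.88 and -0.82 in pairs 1 and 3 and 0.28 in pair 5.

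The same libraries were at the extremes for many members. Calcium-low replicate 3 was the highest of its group for 23 of the 44 members and calcium-low replicate 1 for 13. Among the calcium-high libraries, replicate 5 was the highest for 33 members and replicate 2 the lowest for 20. The mean log2(RPKM + 1) over the members was 2.34 to 3.10 in calcium-high and 2.70 to 3.49 in calcium-low, with the 3 highest values in calcium-low replicates 3 and 1 and calcium-high replicate 5. Calcium-high replicate 5 also had the highest summed monocyte and macrophage markers, 182.1 RPKM, beside 151.7 in calcium-high replicate 6 and 42.3 to 81.4 elsewhere, and their part in its member levels was not tested.

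**Figure D4:**
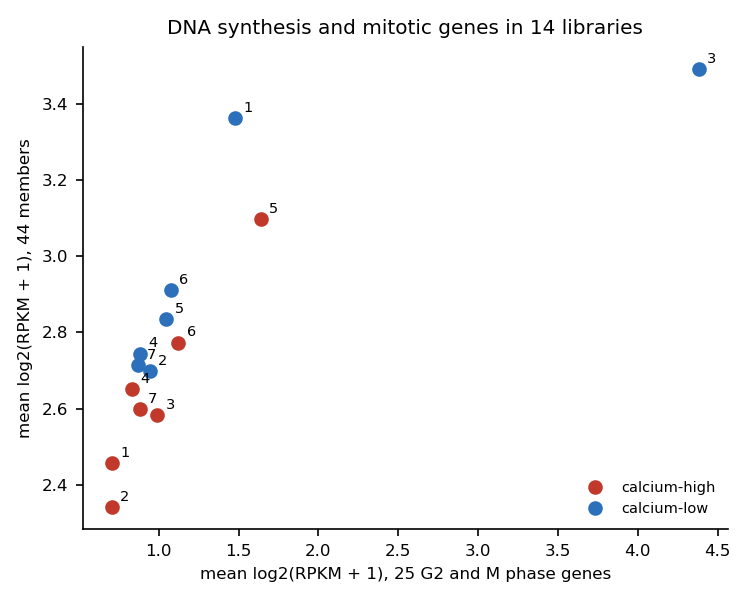
Mean log2(RPKM + 1) over the 44 members against the mean over 25 G2 and M phase genes, with 1 point per library. Calcium-low replicate 3 lies at 4.38 on the G2 and M axis, where the other 13 libraries lie between 0.707 and 1.64, while its member mean of 3.49 is close to the 3.36 of calcium-low replicate 1.

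Split by replicate number, the 2 sets of libraries gave different sizes. In replicates 1 to 3 alone, 44 of 44 members had a lower mean, with a median log2 fold change of -0.73, beside -0.20 over all tested genes. In replicates 4 to 7 alone, 25 of 44 did, with a median of -0.03 beside 0.11 over all genes. Relative to all genes the medians were -0.54 and -0.14. No member was called in either set by limma, where 0% and 1.78% of genes were called lower: 37 members were lower at an unadjusted p under 0.05 in replicates 1 to 3, beside 11.4% of genes, and 1 in replicates 4 to 7, beside 4.37%. Most members (39, or 88.6%) were lower in all of pairs 1 to 3, against 47.1% of genes, but only Hells, Dtl and Ung (6.82%) were lower in all of pairs 4 to 7, against 6.08%.

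By function, the medians in replicates 1 to 3 were -1.17 for nucleotide supply, -0.77 for the lagging strand genes and -0.65 to -0.72 for the origin, polymerase, clamp, chromatin and fork groups, and E2f1 was at -0.47. In replicates 4 to 7 they were 0.07 for nucleotide supply, 0.08 for the lagging strand, 0.06 for the clamp group and between -0.09 and 0.00 for the others. Dtl was the member with the most negative value in replicates 4 to 7, -0.42, beside -0.75 in replicates 1 to 3. Rrm2 had the most negative value in replicates 1 to 3, -1.45, and was at 0.19 in replicates 4 to 7. Depth differed between these sets and Y-linked reads were in replicates 1 and 2, the labels name no batch, and what separates the sets cannot be told apart.

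The difference between the sets was tested as an interaction in limma. Without the block, 0 of 44 members passed, against 0% of genes, with a lowest adjusted p of 0.105, and 31 members had an unadjusted p under 0.05, beside 28.1% of all genes in that direction. With the block, Rrm2, Pole, Slbp, Rpa2, Fen1 and Rfc4 passed, each closer to 0 or above it in replicates 4 to 7, against 1.54% of genes. The median of all genes itself moved by 0.31 between the sets. After median-of-ratios scaling with the block, which brought that shift to 0.00, no member passed, against 0.0202% of genes, and the lowest adjusted p was 0.0548. Without calcium-low replicate 2 and without the block, 31 members passed, against 18.9% of genes.

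**Figure D5:**
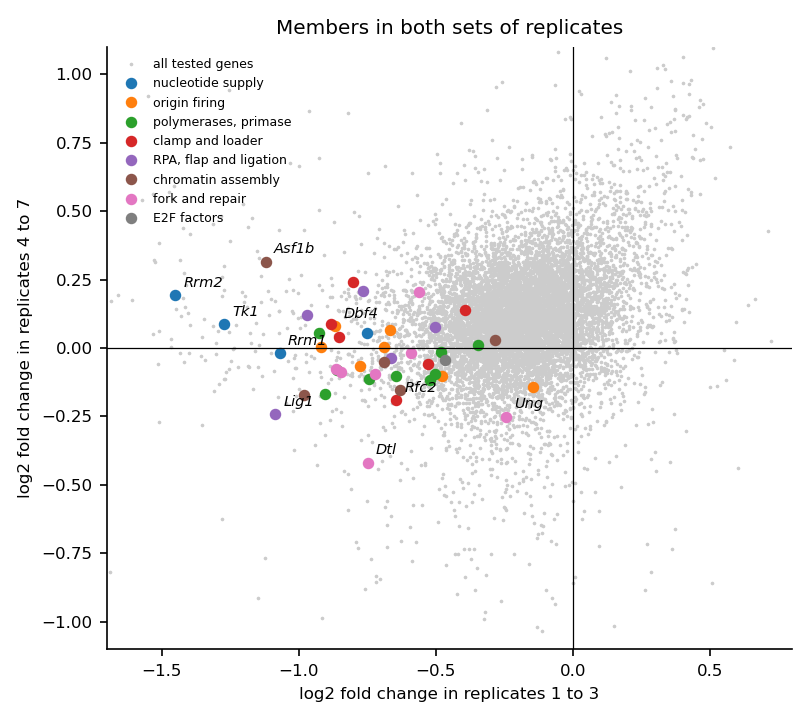
Log2 fold change, calcium-high minus calcium-low, in replicates 1 to 3 (horizontal) and in replicates 4 to 7 (vertical) for the 44 members, coloured by function, over all tested genes in grey; 63 of the tested genes lie outside the axes. The members lie between -1.45 and -0.15 on the horizontal axis and between -0.42 and 0.32 on the vertical axis.

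Leaving out both replicate 3 libraries, which holds out the library rich in mitotic and neutrophil transcripts, left 42 of 44 members with a lower mean, with a median log2 fold change of -0.23 beside 0.01 over all genes. Asf1b and Rfc3 were then at 0.04 and 0.00. The log2 fold change of 18 of the 44 members differed by over 1.5 times from that with all libraries, including all 4 nucleotide supply genes: Rrm1 was at -0.24, Rrm2 at -0.27, Tk1 at -0.27 and Tyms at -0.086. Among the others, Cdc45 was at -0.16, Dbf4 at -0.068, Cdc7 at -0.056, Rfc5 at -0.12, Rfc4 at -0.040, Fen1 at -0.070, Rpa1 at -0.046, Pole at -0.21, Pold3 at -0.076, Clspn at -0.28 and Tipin at -0.012. Ung alone of the 18 had a more negative value than with all libraries, -0.41. Dtl, Lig1 and Slbp, at -0.57, -0.57 and -0.42, were not among the 18. By function the medians were -0.28 for fork genes, -0.25 for the nucleotide supply, lagging strand and chromatin genes, -0.23 for polymerases, -0.21 for E2f1 and -0.16 for the origin and clamp groups. The members with an E2F form had a median of -0.28 and those without one -0.20. Without those libraries and with the block, limma called Dtl alone among the members (adjusted p = 0.041), against 1.39% of genes called lower. Leaving out calcium-low replicate 3 only, 41 of 44 had a lower mean and the median was -0.24.

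Other genes of the same pathways were in lists of their own. Of 34 tested fork genes, which include the MCM subunits, 32 (94.1%) had lower means in calcium-high, beside 57.8% of all tested genes. In limma with or without the block 0 were called. At an unadjusted p under 0.05 with the block, 17 were lower, beside 8.04% of all genes. The fork genes had a median log2 fold change of -0.25. Their gene of smallest p was the helicase subunit Mcm7, at 20.4 ± 4.70 and 29.2 ± 5.64 RPKM (adjusted p = 0.086 in limma with the block). All 16 chromatin-copying genes had lower means, with a median of -0.25 and 0 called. Limma with median-of-ratios scaling and the block called Mcm4, Mcm7, Cdt1 and Topbp1 lower among the fork genes and Uhrf1 among the chromatin genes. In that fit 0.726% of all tested genes were called lower. In the chromatin list the histone chaperone Asf1a, the paralog of Asf1b, was at 2.66 ± 0.784 and 3.84 ± 0.848 RPKM, lower in 7 of 7 pairs (adjusted p = 0.059 in limma with the block).

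Lower means were found for 21 of 26 other nucleotide supply genes (median -0.17), for 22 of 25 other repair and checkpoint genes (-0.17) and for 10 of 13 E2F and RB genes (-0.21), with 0 called in limma with or without the block. At an unadjusted p under 0.05 with the block, 6, 3 and 3 of them were lower, beside 8.04% of all genes. In the same fit 1 nucleotide supply gene was higher, beside 5.84% of all genes. The genes of smallest p were the folate enzyme Shmt1 (log2 fold change -0.31, adjusted p = 0.19), the Fanconi core gene Fanca (-0.47, 0.20) and the kinase gene Cdk2 (-0.27, 0.23), all in limma with the block. The 8 tested translesion polymerases, which copy damaged DNA, had a median of -0.04, with 5 lower, 0 called and none with a raw p under 0.05. Poll had the lowest adjusted p of them, 0.64 in limma with the block.

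All 25 tested G2 and M phase genes had lower means in calcium-high, with a median log2 fold change of -0.55 and 0 called, and 3 at an unadjusted p under 0.05 with the block. The condensin gene Smc4 had their smallest p (log2 fold change -0.51, adjusted p = 0.28 in limma with the block). The median of the list was -0.11 without calcium-low replicate 3, where 16 of 25 were lower, while the member median was -0.24. Among the cell type markers, the HSC genes Fgd5, Procr and Slamf1 and the platelet gene Vwf were called higher in calcium-high by limma with the block (adjusted p = 0.036, 0.036, 0.034 and 0.034), each in 7 of 7 pairs. That fit called 0.484% of all tested genes higher. The summed megakaryocyte markers were 87.05 to 191.4 RPKM in calcium-high and 90.8 to 111.8 in calcium-low, and the lymphoid markers 8.04 to 23.5 and 14.97 to 41.5. In the other marker lists no gene was called by limma with or without the block, and the genes of smallest p were Elane (neutrophil, log2 fold change 0.97), Tfrc (erythroid, -0.34), Nkg7 (lymphoid, -1.02) and Ly6c2 (monocyte, 1.07). Elane and Tfrc went against their lists. Lower means were found for 6 of 7 tested neutrophil markers (median -0.27) and 1 of 9 erythroid markers (0.23). They were found for 2 of 3 lymphoid (-0.87) and 0 of 2 monocyte and macrophage markers (0.63). Without calcium-low replicate 3, 2 of 7 neutrophil markers were lower (median 0.07). The part of the cell type markers in the member differences was not tested.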

How the data were processed

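The authors deposited 1 table of RPKM values for each of the 14 libraries, and the unit was read from the values because the header names none. Per the labels' protocols, RNA of 100 sorted cells was primed with not-so-random primers and made into Nextera XT libraries. The builds GRCm38 and mm10 and the package edgeR appear in the submitters' processing notes without their roles. Which aligner, counter and annotation were used is not given in the sources used here. Of 48737 labels in each table, 23 serial numbers without a gene name were left out.

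The members, lists and tests were chosen with earlier results of these data known. Groups were taken from the titles. Genes with a mean of at least 1 RPKM were tested with limma 3.58.1 (trend, two-sided, R 4.3.3) on log2(RPKM + 1), which understates the change of low genes, with Benjamini-Hochberg adjustment over 9921 genes and a threshold of 0.05. The replicate number was an alternative block. Deviations from the group means were correlated within each of 7 pairs at r of 0.384 to 0.715, all over 0.1. Values of r for libraries of unlike number are not given here, so those printed cannot show that the numbers pair the libraries. Pairing by number is an assumption of the block fits and the pair counts. For voom, reads were recovered from the RPKM steps, which gave whole reads within 0.02 for 9848 of 9848 genes tried, and for 0 of 500 genes whose values were jittered. A member had 16 to 4616 reads per library (median 385). Only limma without the block was tested on simulated data, and the other fits were not. Other tools were Python 3.11.15, pandas 2.3.3, numpy 2.4.6 and matplotlib 3.10.9.

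In each functional group, values by library are given for the member of highest mean and the 2 tested members of smallest p with the block, and other members by fold change. From each further list the gene of smallest p with the block and any gene called by limma with or without it are named. Alternatives were scaling, pseudocount, filter, voom, the block, the sets of replicates and leaving out libraries. A search of the proteins for the PCNA-binding PIP box was planned, and protein sequences were not used here.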

Additional observations from a re-analysis of the deposited data

Results flagged for a closer look

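In 22 of 90 sets of 7 values (45 genes in 2 groups), the highest library stood further from its neighbour than Dixon's 95% limit allows; chance alone gives this in about 1 in 20 sets, and members share their libraries. In 11 of the 22 the library was calcium-low replicate 3. There, Rrm1 was at 50.2 RPKM (8.47 to 22.75 in the rest of the group), Rrm2 at 21.7, Tyms at 8.28, Cdc45 at 5.72, Cdc7 at 10.6 and Dbf4 at 10.5 RPKM. In the same library Rfc5 was at 23.3, Rpa1 at 20.2, Fen1 at 15.99, Asf1b at 19.5 (2.23 to 5.52 in the rest) and E2f2 at 1.95 RPKM.

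Calcium-low replicate 1 stood apart for Lig1, at 27.9 RPKM (11.9 to 16.2 in the rest), and for Hells, at 7.01 RPKM (2.01 to 3.24). Among the calcium-high libraries, replicate 5 stood apart for Tyms at 4.08, Gins2 at 6.64, Pcna at 56.6 (28.96 to 38.1 in the rest), Rfc2 at 44.4, Asf1b at 7.84, Clspn at 3.71, Exo1 at 2.91 and E2f2 at 1.66 RPKM. Calcium-high replicate 3 stood apart for Orc1, at 1.94 RPKM (0.721 to 1.13 in the rest).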

How the results depend on the processing

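Over 37 alternatives, 1609 member fold changes were recomputed: 33 changed sign and 10 moved past the threshold. Members called lower numbered 0 in the main analysis, 3 with median-of-ratios scaling and the replicate block, 3 in voom with the replicate block, 3 in voom with quality weights and 1 without replicate 3 with the block, and 0 to 1 over all leave-outs. Members with a lower mean numbered 25 in replicates 4 to 7, and 25 of 25 tested at a minimum mean of 5 RPKM; leave-outs gave 41 to 44. Calls among the other replication lists went from 0 to 5, 5, 4 and 1 lower under those same 4 alternatives (0 to 1 over leave-outs). Of all genes, 0.726%, 1.34%, 2.6% and 1.39% were called lower in them. Higher calls went to 1 in voom with the replicate block, 1 in voom with quality weights and 3 in replicates 4 to 7. In those fits 4.02%, 4.49% and 6.36% of all genes were called higher. The other replication lists held 26, 34, 16, 25 and 13 tested genes. The median of the lagging strand genes was -0.77 in replicates 1 to 3 and 0.077 in replicates 4 to 7, where nucleotide supply was at 0.072, clamp genes at 0.064 and origin genes at 0.0027. Members whose difference between replicate sets passed numbered 6 with the replicate block and 31 without calcium-low replicate 2, where 18.9% of all genes passed too (0 to 31 over leave-outs). The cause was not tested.

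In replicates 4 to 7 alone these log2 fold changes were above 0: Rrm2 0.19, Tyms 0.056, Tk1 0.088, Cdc45 0.0027, Cdc7 0.068, Dbf4 0.081, Orc6 0.0035, Pole 0.055, Pold3 0.0094, Pcna 0.040, Rfc3 0.14, Rfc4 0.24, Rfc5 0.088, Rpa1 0.077, Rpa3 0.12, Fen1 0.21, Chaf1b 0.030, Asf1b 0.32 and Tipin 0.21. In voom with quality weights they were Dbf4 0.049, Rfc3 0.0027, Rfc4 0.16, Asf1b 0.14 and Tipin 0.085. Leaving out 1 library gave -0.14 to 0.00691 for Rfc3, -0.45 to 0.00652 for Asf1b and -0.22 to 0.032 for Tipin. Leaving out a pair with the block gave -0.16 to 0.00241, -0.43 to 0.040 and -0.24 to 0.021. Leaving out both replicate 3 libraries, an alternative chosen after seeing the data, gave Rfc3 0.00241 and Asf1b 0.040. Median-of-ratios scaling with the block for the set difference was added in the same way.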
